A study of Mus musculus with 57 samples.

Results

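Chloride, bicarbonate and sodium-proton transporters of the colon epithelium were followed on 57 arrays as 9 genes: Slc26a3, Slc26a2, Slc26a6, Slc9a2, Slc9a3, Slc4a4, Slc4a2, Slc12a2 and Cftr. The genes were chosen by name, with earlier results of these data known. Their counts and medians are therefore set beside those of all genes only as a description. Each had exactly 1 probe set with a single gene symbol, so all 9 were measured among the 22180 genes of the table. The samples were distal colon of female C57BL/6 mice aged 18 to 24 weeks. They carried either floxed insulin receptor alleles (INSRfl/fl, called fl/fl) or, as littermates, inactivation of that receptor gene in the intestinal epithelium under the villin promoter (villin-CRE-INSR-/-, called knockout). Untreated colon was represented by 10 fl/fl and 10 knockout samples. Treated mice received an intraperitoneal injection of 7.4 mg/kg AOM, a colon carcinogen, and 7 days of 3% DSS, which injures the epithelium, in week 2. The treated mice were killed in week 5, given as 3 weeks past the end of DSS. The samples after AOM+DSS were colon (10 fl/fl and 10 knockout, called treated colon) and tumors (8 fl/fl and 9 knockout). Whether any mouse gave more than 1 sample is not stated in the labels. Cre is driven in epithelial cells, so other cell types in the tissue keep the receptor. The comparisons ask how AOM+DSS, tumor formation and loss of the epithelial receptor bear on these genes.

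The colon absorbs sodium chloride and secretes bicarbonate through transporters on opposite faces of the same cell. On the luminal side, Slc26a3 exchanges chloride for bicarbonate, Slc26a2 carries sulfate, Slc26a6 exchanges several anions, and the sodium-proton exchangers Slc9a2 (NHE2) and Slc9a3 (NHE3) take up sodium. On the blood side, Slc4a4 (NBCe1) imports sodium bicarbonate, Slc4a2 (AE2) exchanges chloride for bicarbonate, and Slc12a2 (NKCC1) loads the cell with chloride. Cftr is the luminal channel through which secreted chloride and bicarbonate leave. In the colon, absorption is strongest in mature surface cells, while Slc12a2 and Cftr are best known for secretion in the crypts. Loss of SLC26A3 in humans causes congenital chloride diarrhea, and loss of CFTR causes cystic fibrosis.

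All levels are log2 values from the authors' normalization, on which a difference of 1 is a doubling, and a level is never compared between genes because probes differ in brightness. Changes are differences of log2 group means ± SE from limma, fitted to all 57 arrays, and a gene was called when its p, adjusted over 22180 genes, was below 0.05. The medians of the arrays ranged from 5.923 to 6.039. Untreated knockout replicate 2 correlated least with the other arrays of its group, at 0.9756 on average. Insr, the receptor gene itself, was lower in knockout than fl/fl samples in untreated colon (-0.94 ± 0.10), after AOM+DSS (-0.84 ± 0.10) and in tumors (-0.65 ± 0.11). The mean of 6 posterior Hox genes, which mark distal colon, ran from 8.502 to 9.093 in untreated fl/fl colon, and these values give no test of whether a gene was present. The samples hold many cell types, so fewer cells of a type cannot be told apart from less RNA per cell.

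RefSeq promoter windows of assembly GRCm38.p6, from 250 bases before to 50 bases after a listed start, matched 6 of the 9 genes, with 8 windows. The windows of Slc26a3, Slc9a3 and Cftr are shown as examples, since in tumors Slc9a3 rose while Slc26a3 and Cftr fell. Slc4a4, which also fell, had windows that are not shown. Capitals mark matches, on either strand, to short motifs of factors known from the intestine, searched in all 32851 windows of the same length. The motif TTTAT, bound by CDX factors, occurred in 40% of windows, and GTTAAT, bound by HNF1, in 7.1%. The motif CAAAGT, part of an HNF4 site, occurred in 14.4%, and AGATAA, bound by GATA factors, in 11.2%. The motif CACCC, bound by KLF factors, occurred in 57.5%, and ATCAAAG, bound by TCF factors, in 3.73%. The motifs of HNF4 and TCF can share letters. All 3 windows lie on the plus strand, at chr12:31437969-31438268 for Slc26a3, chr13:74121163-74121462 for Slc9a3 and chr6:18170437-18170736 for Cftr.
Slc26a3: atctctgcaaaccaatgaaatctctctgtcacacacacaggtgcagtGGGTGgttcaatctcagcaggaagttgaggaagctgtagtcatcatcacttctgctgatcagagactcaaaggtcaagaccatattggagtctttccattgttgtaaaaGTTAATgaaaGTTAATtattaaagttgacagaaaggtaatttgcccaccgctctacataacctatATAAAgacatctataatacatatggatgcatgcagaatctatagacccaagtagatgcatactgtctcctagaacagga
Slc9a3: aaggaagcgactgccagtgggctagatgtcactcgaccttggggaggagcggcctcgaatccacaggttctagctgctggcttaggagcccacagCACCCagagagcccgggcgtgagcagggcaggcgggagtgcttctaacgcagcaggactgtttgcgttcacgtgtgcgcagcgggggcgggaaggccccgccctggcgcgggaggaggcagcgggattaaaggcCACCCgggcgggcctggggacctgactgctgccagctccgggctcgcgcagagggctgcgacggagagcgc
Cftr: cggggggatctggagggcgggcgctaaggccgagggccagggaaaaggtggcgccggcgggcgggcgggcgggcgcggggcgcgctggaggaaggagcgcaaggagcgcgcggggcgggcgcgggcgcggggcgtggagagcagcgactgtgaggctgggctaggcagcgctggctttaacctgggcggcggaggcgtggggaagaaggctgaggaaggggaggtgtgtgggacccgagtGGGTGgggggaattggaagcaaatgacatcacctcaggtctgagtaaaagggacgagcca
The Slc26a3 window, of 39.3% G and C, held GTTAAT at 94 and 84 bases before the start, TTTAT on the opposite strand at 29 bases before it, and CACCC on the opposite strand at 203 bases before it. The Slc9a3 window, of 68.7% G and C, held CACCC at 155 and 21 bases before the start. The Cftr window, of 71.3% G and C, held only CACCC, on the opposite strand, at 10 bases before the start. The median window held 52.7% G and C. These are matches of letters in a short stretch, and binding was not measured.

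After AOM+DSS several transporter genes were called lower in the colon as a whole, while Slc26a3 was not called. In fl/fl colon 4 of the 9 genes were called, where 22.7% of all genes were. All 4 fell (Slc26a2, Slc4a4, Slc4a2 and Cftr), where 10.5% of all genes fell and 12.2% rose. In knockout colon 7 of 9 were called, where 30.2% of all genes were: 6 fell, the same 4 with Slc9a2 and Slc9a3 (14.2% of all genes fell), and Slc12a2 rose (16% of all genes rose). Both comparisons had a median change of the 9 genes below that of all genes, -0.32 against -0.04 in fl/fl and -0.44 against -0.04 in knockout colon.

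In tumors Slc26a3, Slc26a2 and Slc9a2 were far lower than in treated colon, Slc9a3 was higher, and Slc26a6 did not pass the test. In each genotype 7 of 9 genes were called: 5 fell (Slc26a3, Slc26a2, Slc9a2, Slc4a4 and Cftr) and 2 rose (Slc9a3 and Slc12a2). Of all genes, 41.2% were called in fl/fl tumors, 21% rising and 20.2% falling, and 42.9% in knockout tumors, 21.5% rising and 21.4% falling. The median change of the 9 genes was -1.37 in fl/fl and -0.91 in knockout tumors, against 0.02 and 0.00 for all genes. Against untreated colon, 8 of 9 were called in fl/fl tumors (2 rose and 6 fell), where 45.4% of all genes were called, 22.9% rising and 22.5% falling. In knockout tumors 7 of 9 were called (1 rose and 6 fell), where 47.3% were, 23.6% rising and 23.7% falling. The tumor comparisons with treated and with untreated colon use the same tumors, and those with treated colon share its samples with the AOM+DSS comparison.

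**Figure D1:**
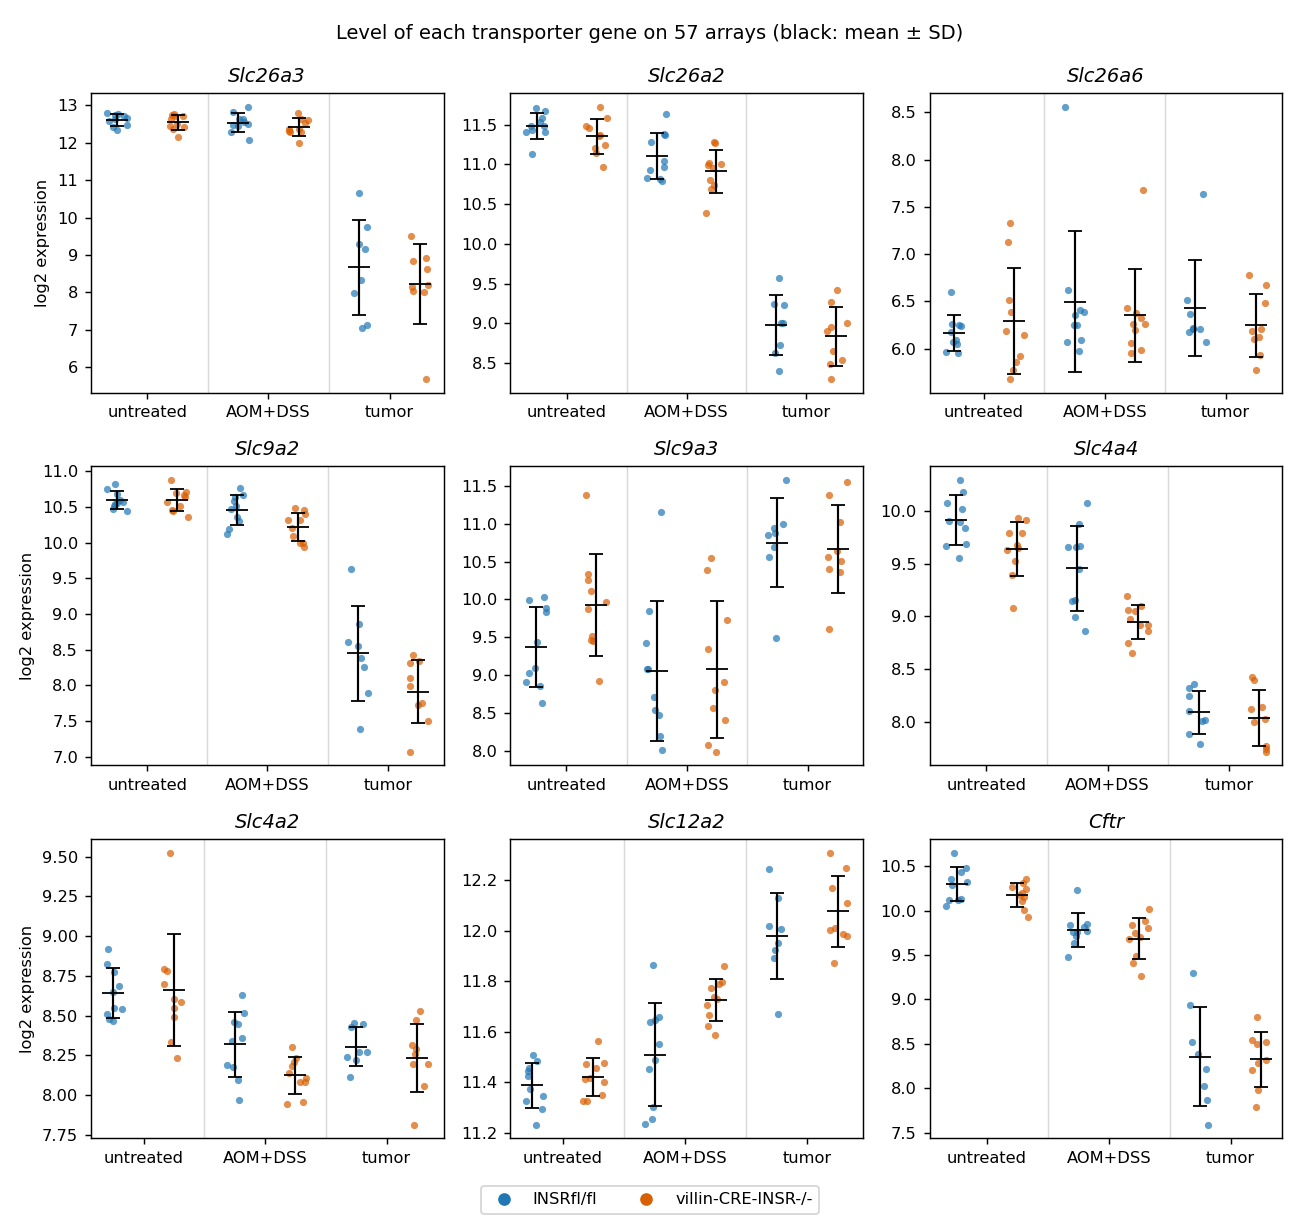
Level of each of the 9 transporter genes (y axis, log2 expression) on 57 arrays by condition (x axis), with fl/fl samples in blue and knockout samples in orange; points are arrays and black bars are the group mean ± SD. Every tumor lies below every colon array for Slc26a3, from 5.678 to 10.65 against 12 or more, while Slc9a3 tumors lie higher and Slc26a6 shows a few high arrays in several groups.

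Slc26a3, the chloride-bicarbonate exchanger of the surface epithelium, was the member with the largest change. In untreated colon its level ran from 12.34 to 12.8 (median 12.65) in fl/fl and from 12.16 to 12.76 (median 12.57) in knockout samples. After AOM+DSS it ran from 12.08 to 12.96 (median 12.53) and from 12 to 12.81 (median 12.37). In tumors it ran from 7.043 to 10.65 (median 8.733) in fl/fl and from 5.678 to 9.492 (median 8.186) in knockout samples. The colon groups overlapped one another, and no tumor reached any colon array. The change after AOM+DSS was -0.07 ± 0.28 in fl/fl (95% confidence interval -0.64 to 0.49, adjusted p = 0.874) and -0.13 ± 0.28 in knockout colon (-0.70 to 0.43, adjusted p = 0.765). The fit shares 1 estimate of spread, and the SD was 1.27 and 1.07 in tumors against 0.156 to 0.251 in the colon groups. Fitted on the compared groups alone, the SE was 0.0899 in fl/fl (adjusted p = 0.58) and 0.092 in knockout colon (adjusted p = 0.298). In tumors Slc26a3 fell, with changes of -3.88 ± 0.30 in fl/fl (adjusted p = 1.59e-16) and -4.21 ± 0.29 in knockout samples (adjusted p = 1.88e-18), to 6.79% and 5.4% of the level in treated colon and 6.45% and 4.93% of that in untreated colon.

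Slc26a2, the sulfate carrier whose loss in humans causes skeletal dysplasias, stepped down at both stages. Its level in untreated colon ran from 11.14 to 11.71 (median 11.49) in fl/fl and from 10.97 to 11.72 (median 11.36) in knockout samples. After AOM+DSS it ran from 10.79 to 11.63 (median 11.01) and from 10.38 to 11.28 (median 10.97). In tumors it ran from 8.407 to 9.573 (median 9.009) and from 8.301 to 9.417 (median 8.903). Treated and untreated colon overlapped, with 6 of 10 treated fl/fl and 5 of 10 treated knockout arrays below all untreated ones, and every tumor lay below every colon array. After AOM+DSS Slc26a2 fell, with changes of -0.38 ± 0.13 in fl/fl (adjusted p = 0.0227) and -0.44 ± 0.13 in knockout colon (adjusted p = 0.00462). In tumors it fell further, with changes from treated colon of -2.13 ± 0.13 (adjusted p = 3.25e-20) and -2.07 ± 0.13 (adjusted p = 2.35e-20), to 22.9% and 23.7% of the treated and 17.6% and 17.5% of the untreated level.

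Slc26a6, an anion exchanger best known from the small intestine and pancreas, passed no test in any comparison. Group medians lay between 6.134 (untreated fl/fl) and 6.306 (treated fl/fl colon). The spread came from a few arrays: treated fl/fl replicate 7 stood at 8.557, treated knockout replicate 10 at 7.675 and fl/fl tumor replicate 6 at 7.636. Changes were 0.33 ± 0.22 (adjusted p = 0.273) and 0.06 ± 0.22 (adjusted p = 0.866) after AOM+DSS, and -0.07 ± 0.23 (adjusted p = 0.842) and -0.10 ± 0.22 (adjusted p = 0.761) in tumors, fl/fl before knockout.

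Slc9a2, a luminal sodium-proton exchanger, followed Slc26a3 and Slc26a2 in tumors. Untreated levels ran from 10.44 to 10.82 (median 10.56) in fl/fl and from 10.36 to 10.88 (median 10.61) in knockout colon. Treated colon ran from 10.12 to 10.76 (median 10.49) and from 9.945 to 10.49 (median 10.26). Tumors ran from 7.391 to 9.625 (median 8.468) and from 7.067 to 8.419 (median 7.983), below every colon array. Slc9a2 fell in tumors, with changes of -2.01 ± 0.16 in fl/fl (adjusted p = 1.2e-16) and -2.31 ± 0.15 in knockout samples (adjusted p = 1.51e-19), which left 24.8% and 20.2% of the treated level. After AOM+DSS its change was -0.14 ± 0.15 in fl/fl (adjusted p = 0.529), and it fell by 0.38 ± 0.15 in knockout colon (adjusted p = 0.0433), with 7 of 10 treated arrays below all untreated ones. Fitted on the compared groups alone, that change was -0.38 ± 0.0787 (adjusted p = 0.000754). In the fit of all arrays the call was lost when any of 11 arrays was left out (untreated knockout replicates 1, 2, 3, 4, 8 and 10, treated knockout replicates 5 to 9), with adjusted p from 0.0532 to 0.081. It was also lost when all arrays were shifted to 1 median (adjusted p = 0.0544).

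Slc9a3, the main sodium-absorbing exchanger of the intestine, took the opposite course from Slc9a2 in tumors. Untreated levels ran from 8.629 to 10.03 (median 9.26) in fl/fl and from 8.925 to 11.38 (median 9.913) in knockout colon. Treated colon spread widely, from 8.014 to 11.16 (median 8.895) and from 7.985 to 10.54 (median 8.857). Tumors ran from 9.495 to 11.58 (median 10.86) and from 9.615 to 11.55 (median 10.56). The groups overlapped: 1 of 8 fl/fl and 5 of 9 knockout tumors lay above all treated colon of their genotype. Slc9a3 rose in tumors by 1.70 ± 0.33 in fl/fl (adjusted p = 2e-05) and by 1.59 ± 0.32 in knockout samples (adjusted p = 3.12e-05), which is 3.24 and 3.02 times the treated colon. With the mean of 8 smooth muscle markers as a covariate, these differences were -0.17 (adjusted p = 0.931) and -0.23 (adjusted p = 0.89). Over untreated colon it rose by 1.38 ± 0.33 in fl/fl tumors (adjusted p = 0.000372, 7 of 8 above all untreated arrays), and with that covariate the difference was -0.45 (adjusted p = 0.731). In knockout tumors the difference was 0.74 ± 0.32 (adjusted p = 0.0503, 1 of 9 above all untreated arrays). Leaving out untreated knockout replicate 2, 3 or 10, or knockout tumor 4, 6 or 8, gave adjusted p from 0.0149 to 0.0493. Leaving out any other array kept the difference uncalled, with adjusted p up to 0.114. With the smooth muscle covariate the knockout difference was -1.24 (adjusted p = 0.213), and with the posterior Hox mean it was 0.56 (adjusted p = 0.127). The pan-epithelial and squamous means as covariates gave 1.09 (adjusted p = 0.0236) and 0.84 (adjusted p = 0.0193).

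The AOM+DSS change of Slc9a3 was -0.32 ± 0.31 in fl/fl colon (adjusted p = 0.483). In knockout colon Slc9a3 fell by 0.85 ± 0.31 (adjusted p = 0.031), with 6 of 10 treated arrays below all untreated ones. Leaving out untreated knockout replicate 2 or 10, or treated knockout replicate 3, 4, 5 or 8, ended the call (adjusted p from 0.0517 to 0.089). Untreated knockout replicate 2, the highest untreated array for Slc9a3 at 11.38, also had the lowest mean of 6 posterior Hox genes in its group, 6.927 against a group median of 8.817. Treated fl/fl replicate 6, the highest there at 11.16, had the lowest Hox mean of its group as well, 8.103 against a median of 8.8. The tumors held low Hox means too, down to 6.667 in fl/fl and 6.579 in knockout tumors, with 5 and 2 of the 6 genes falling from treated colon. Of the tumors with the lowest Hox means, fl/fl tumor 7, at 6.667, had the lowest Slc9a3 of its group (9.495). Knockout tumor 1, at 6.579, had the highest of its group (11.55). The highest fl/fl tumor for Slc9a3, tumor 6 at 11.58, had a Hox mean of 7.253. The lowest knockout tumor for Slc9a3, tumor 6 at 9.615, had a Hox mean of 8.907. Over the 57 arrays, deviations of Slc9a3 from its group means correlated at -0.4 with those of the Hox mean. With the Hox mean as a covariate, an alternative chosen after seeing the data, Slc9a3 in tumors was 1.28 ± 0.33 (adjusted p = 0.00129) and 1.36 ± 0.31 (adjusted p = 0.000184) above treated colon.

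Slc4a4, the sodium bicarbonate importer of the basolateral membrane, fell at both stages in both genotypes. Untreated levels ran from 9.56 to 10.3 (median 9.901) in fl/fl and from 9.085 to 9.934 (median 9.666) in knockout colon. Treated colon ran from 8.865 to 10.08 (median 9.557) and from 8.649 to 9.196 (median 8.946). Tumors ran from 7.791 to 8.361 (median 8.057) and from 7.712 to 8.422 (median 8.025), below every colon array. Within treated colon the fl/fl arrays spread over a wide range and the knockout arrays over a narrow one. After AOM+DSS Slc4a4 fell, with changes of -0.46 ± 0.12 in fl/fl (adjusted p = 0.00288) and -0.69 ± 0.12 in knockout colon (adjusted p = 3.97e-06). Its changes in tumors from treated colon were -1.37 ± 0.12 (adjusted p = 4.14e-14) and -0.91 ± 0.12 (adjusted p = 3.57e-09). Against untreated colon the tumors retained 28.2% and 32.8% of the level.

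Slc4a2, the basolateral chloride-bicarbonate exchanger, fell after AOM+DSS and did not pass the test between tumors and treated colon. Untreated levels ran from 8.464 to 8.918 (median 8.598) in fl/fl and from 8.237 to 9.526 (median 8.598) in knockout colon. Treated colon ran from 7.971 to 8.629 (median 8.352) and from 7.942 to 8.303 (median 8.122). Tumors ran from 8.115 to 8.451 (median 8.27) and from 7.815 to 8.529 (median 8.258). Treated colon lay mostly below untreated colon, with 8 of 10 fl/fl and 9 of 10 knockout arrays below all untreated ones. The changes of Slc4a2 after AOM+DSS were -0.32 ± 0.09 (adjusted p = 0.00959) and -0.54 ± 0.09 (adjusted p = 7.89e-06). The tumor change from treated colon was -0.01 ± 0.10 in fl/fl (95% confidence interval -0.21 to 0.19, adjusted p = 0.935) and 0.11 ± 0.10 in knockout samples (-0.08 to 0.31, adjusted p = 0.388). With the mean of the pan-epithelial markers as a covariate, the knockout tumors were called higher, by 0.24 (adjusted p = 0.0168). Against untreated colon the tumors were lower, at -0.33 ± 0.10 (adjusted p = 0.00412) and -0.42 ± 0.10 (adjusted p = 0.000169).

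Slc12a2, the chloride-loading cotransporter, was the only member called higher in tumors than in treated and untreated colon in both genotypes. Untreated levels ran from 11.23 to 11.51 (median 11.4) in fl/fl and from 11.32 to 11.57 (median 11.41) in knockout colon. Treated colon ran from 11.24 to 11.86 (median 11.52) and from 11.59 to 11.86 (median 11.73). Tumors ran from 11.67 to 12.24 (median 11.98) and from 11.87 to 12.31 (median 12.01). All 10 treated knockout arrays lay above all untreated knockout arrays, while 5 of 10 did so in fl/fl colon. Slc12a2 rose after AOM+DSS by 0.31 ± 0.06 in knockout colon (adjusted p = 7.69e-05), and the fl/fl change was 0.12 ± 0.06 (adjusted p = 0.152). In tumors it rose over treated colon by 0.47 ± 0.07 in fl/fl (adjusted p = 1.8e-08, 7 of 8 above all treated arrays) and by 0.35 ± 0.06 in knockout samples (adjusted p = 5.16e-06, 9 of 9). These are 1.38 and 1.27 times the treated colon. Over untreated colon it rose by 0.59 and 0.66, to 1.5 and 1.57 times that level.

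Cftr, the chloride channel of secretion, fell at both stages and did not rise with Slc12a2. Untreated levels ran from 10.05 to 10.66 (median 10.31) in fl/fl and from 9.928 to 10.35 (median 10.19) in knockout colon. Treated colon ran from 9.476 to 10.23 (median 9.763) and from 9.263 to 10.02 (median 9.724). Tumors ran from 7.59 to 9.294 (median 8.306) and from 7.789 to 8.806 (median 8.323). In each genotype 9 of 10 treated colon arrays lay below all untreated ones, and every tumor lay below every colon array of its own genotype. After AOM+DSS the changes of Cftr were -0.51 ± 0.13 in fl/fl (adjusted p = 0.00199) and -0.49 ± 0.13 in knockout colon (adjusted p = 0.00166). In tumors they were -1.43 ± 0.13 (adjusted p = 1.3e-13) and -1.36 ± 0.13 (adjusted p = 2.43e-13), which left 37.2% and 39.1% of the treated colon.

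**Figure D2:**
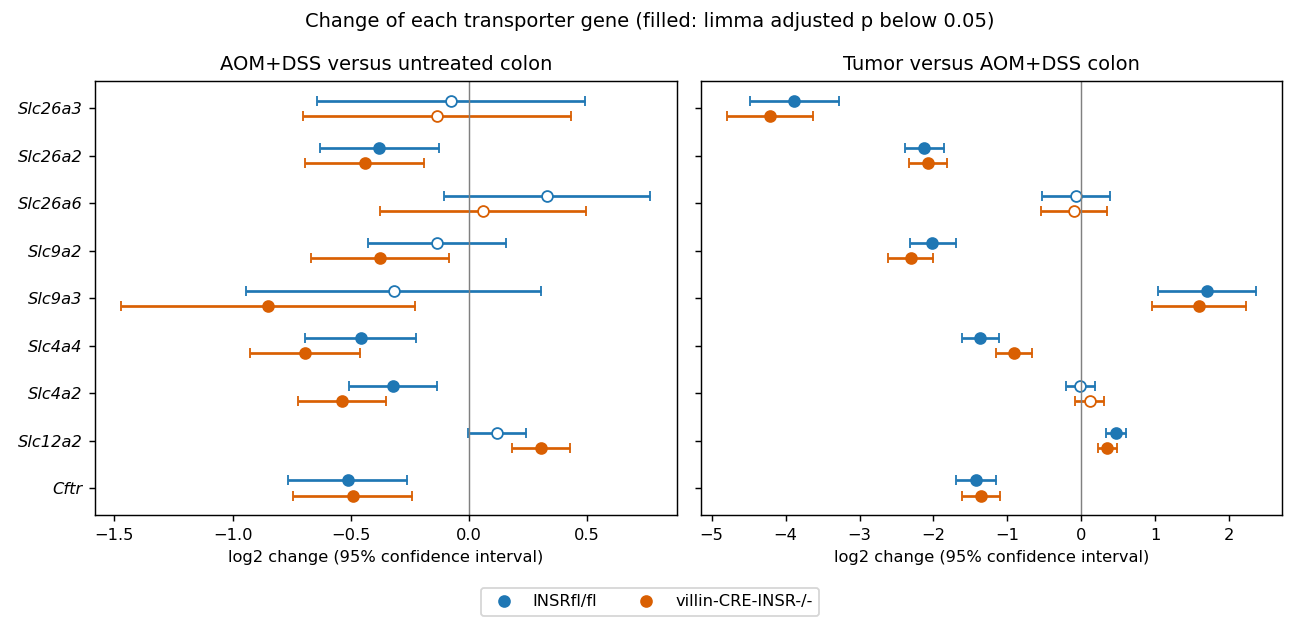
Log2 change of each transporter gene (x axis) with its 95% confidence interval, for AOM+DSS against untreated colon and tumor against AOM+DSS colon, fl/fl in blue and knockout in orange; filled points have a limma adjusted p below 0.05. Slc26a3 sits near 0 after AOM+DSS and at -3.88 and -4.21 in tumors, and the intervals of the genotypes overlap for every gene in the AOM+DSS panel.

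Few of these genes differed by genotype. In untreated colon limma called 0 of the 9 between knockout and fl/fl, where 0.00451% of all genes were called, and 1 gene had an unadjusted p below 0.05. That gene was Slc4a4, at -0.27 ± 0.12 (adjusted p = 0.872). In treated colon 1 of 9 was called, where 0.541% of all genes were: Slc4a4 fell to 70.2% of the fl/fl level, a change of -0.51 ± 0.12 (adjusted p = 0.0312), with 3 of 10 knockout arrays below all fl/fl arrays. The call was lost on leaving out fl/fl replicate 1, 2, 3, 5 or 8 or knockout replicate 5, 6, 7 or 8 (adjusted p from 0.0579 to 0.112), and in a fit of the compared groups alone (adjusted p = 0.132). In the same samples the immune mean ran from 7.841 to 9.608 in fl/fl and from 9.056 to 9.632 in knockout colon, with 1 of 8 markers called higher and a median difference of 0.49. The fibroblast mean ran from 10.02 to 11.21 and from 10.62 to 11.09 (0 of 6 called, median difference 0.32), and 0 of 7 surface colonocyte markers were called (median difference -0.32). The part of these markers in the Slc4a4 difference was not tested. Slc12a2 differed by 0.22 ± 0.06 in treated colon (adjusted p = 0.0692), and leaving out fl/fl replicate 4 or 10 gave adjusted p of 0.00767 and 0.0484. Slc4a2, the other with an unadjusted p below 0.05 there, differed by -0.20 ± 0.09 (adjusted p = 0.355).

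In tumors limma called 0 of 9 between genotypes, where 0.00902% of all genes were called, and 1 had an unadjusted p below 0.05. Slc9a2 was that gene, at -0.53 ± 0.16 (unadjusted p = 0.00134, adjusted p = 0.731). Slc26a3 differed by -0.45 ± 0.31 between knockout and fl/fl tumors, with an interval from -1.07 to 0.16. The genotype difference in the AOM+DSS change was called for 0 of 9 genes and for 0% of all genes. Slc12a2 alone had an unadjusted p below 0.05, at 0.19 ± 0.09 (adjusted p = 0.804). The genotype difference in the tumor change was called for 0 of 9 and for 0% of all genes, and Slc4a4 alone had an unadjusted p below 0.05, at 0.45 ± 0.17 (adjusted p = 0.616). The larger fall of Slc4a4 in knockout than fl/fl colon after AOM+DSS, -0.69 against -0.46, was therefore not called as a difference (-0.24 ± 0.17, adjusted p = 0.861).

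Cell type markers moved with the same comparisons. After AOM+DSS 6 of 7 squamous epithelium markers rose in each genotype, and the mean of the list ran from 5.13 to 9.584 in treated fl/fl and from 5.211 to 9.796 in treated knockout colon, against 5.149 to 8.592 and 5.096 to 7.883 in untreated colon. With the squamous mean as a covariate, 1 of 9 transporter genes was called in fl/fl colon (Slc4a4) and 3 of 9 in knockout colon (Slc4a4, Slc4a2 and Slc12a2). The fl/fl changes that lost their call were then -0.28 for Slc26a2 (adjusted p = 0.198), -0.26 for Slc4a2 (adjusted p = 0.106) and -0.33 for Cftr (adjusted p = 0.103). In knockout colon they were -0.34 for Slc26a2 (adjusted p = 0.076), -0.21 for Slc9a2 (adjusted p = 0.404), -0.45 for Slc9a3 (adjusted p = 0.391) and -0.31 for Cftr (adjusted p = 0.0959). All 8 immune and all 6 fibroblast markers rose as well, and their part in these results was not tested. The pan-epithelial mean stood at 10.97 to 11.26 in untreated and 10.76 to 11.16 in treated fl/fl colon, and at 10.9 to 11.26 and 10.71 to 11.17 in knockout colon. With it as a covariate the same 3 of 9 genes were called in knockout colon, where Slc9a2 stood at -0.09 (adjusted p = 0.672), Slc26a2 at -0.27 (adjusted p = 0.12), Slc9a3 at -0.65 (adjusted p = 0.158) and Cftr at -0.29 (adjusted p = 0.0777). In fl/fl colon Slc26a2 lost its call, at -0.27 (adjusted p = 0.089). The Slc4a4 difference between genotypes in treated colon stood at -0.48 (adjusted p = 0.054).

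In tumors all 7 surface colonocyte markers fell and all 6 crypt base markers rose, in each genotype. The surface mean ran from 8.571 to 10.51 in fl/fl and from 8.052 to 10.32 in knockout tumors, against 11.66 to 12.37 and 11.31 to 12.07 in treated colon. The part of these markers in the fall of Slc26a3, Slc26a2, Slc9a2 and Cftr was not tested. All 8 smooth muscle markers fell too, with a mean of 9.507 to 10.54 in fl/fl and 8.941 to 10.68 in knockout tumors, against 11.33 to 12 and 11.19 to 11.8 in treated colon, so the ranges do not meet. With the smooth muscle mean as a covariate the tumor change of Slc26a3 was -4.21 ± 0.61 in fl/fl and -4.53 ± 0.59 in knockout samples. Slc26a2, Slc9a2 and Cftr also kept their calls, at -1.64, -1.88 and -1.24 in fl/fl and -1.60, -2.18 and -1.18 in knockout tumors. The Slc12a2 difference from treated colon became 0.38 (adjusted p = 0.0574) and 0.26 (adjusted p = 0.221). Slc4a4 lost its call in knockout tumors (-0.51, adjusted p = 0.183). Over untreated colon Slc12a2 remained called with this covariate, at 0.50 in fl/fl (adjusted p = 0.00412) and 0.56 in knockout tumors (adjusted p = 0.00263). Because the ranges do not meet, this fit extrapolates, and a kept or lost call does not separate one gene from another. No difference between tumors and colon can be told apart from the lower smooth muscle markers in these samples. Against untreated colon, Slc4a2 lost its tumor calls with this covariate (adjusted p = 0.689 and 0.53) and with the pan-epithelial mean (0.357 and 0.364).

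**Figure D3:**
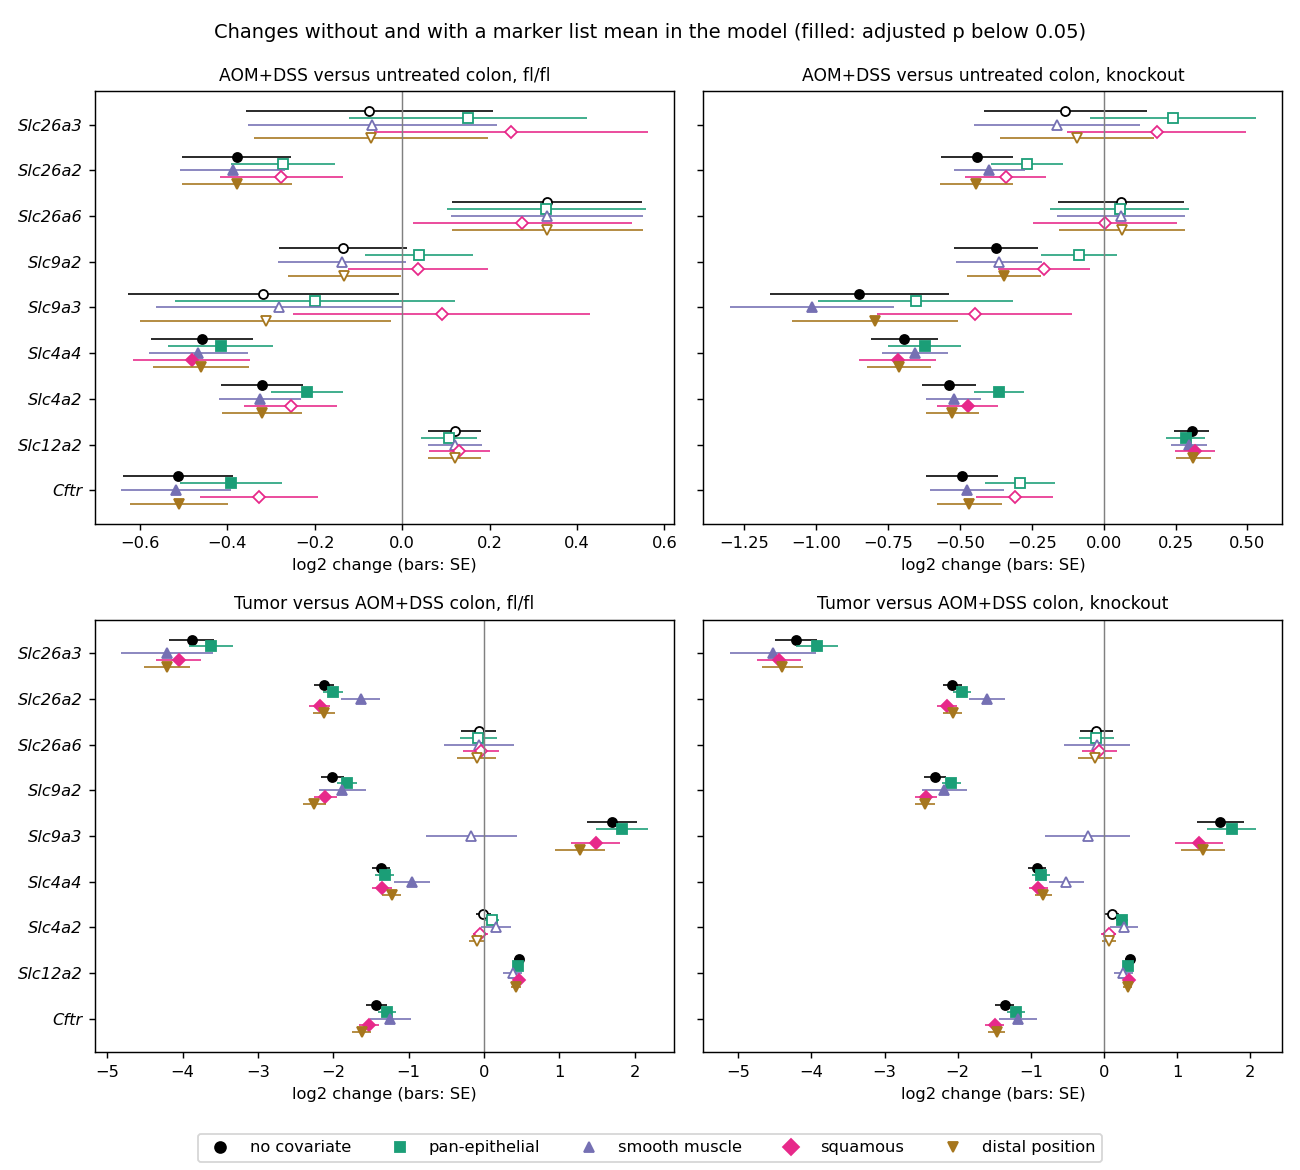
Log2 change (x axis, bars SE) of each transporter gene without a covariate and with the mean of the pan-epithelial, smooth muscle, squamous or distal position markers in the model; filled symbols have an adjusted p below 0.05. In tumors Slc26a3 stays between -4.53 and -3.62 under these fits, while Slc9a3 moves from 1.70 and 1.59 to -0.17 and -0.23 with the smooth muscle mean.

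Among tumors, Slc26a3 spanned a wide range and some of the other luminal genes followed it. In 8 fl/fl tumors Slc26a3 was lowest in replicates 1 and 5 (7.043 and 7.119) and highest in replicates 2 and 7 (9.745 and 10.65). Slc26a2 stood at 8.407 and 8.623 in the former and at 9.241 and 9.573 in the latter. Over the 8 tumors the Pearson correlation of Slc26a2 with Slc26a3 was 0.969 (two-sided exact permutation p = 7.44e-05, adjusted 0.00119 over 16 relations) and Spearman's rho 0.976 (exact p = 0.000397, adjusted 0.00635). Without tumors 1 and 7, the farthest from the median of Slc26a3, r was 0.937. In 9 knockout tumors r was 0.752 (exact permutation p = 0.00911, adjusted 0.0365), rho 0.767 (exact p = 0.0214, adjusted 0.0816), and r without tumors 6 and 8 was 0.603. The relations were chosen after seeing the data, and the labels name no batch within which to repeat them. In fl/fl tumors 2 and 7 the posterior Hox mean was 6.729 and 6.667, against 8.791 and 8.892 in fl/fl tumors 1 and 5. Their surface colonocyte means were 10.14 and 10.51 against 8.635 and 8.571. Among knockout tumors, tumor 8, highest for Slc26a3 at 9.492, had a Hox mean of 9.015, and tumor 1, at 8.13, had 6.579. The part of these markers in the relations was not tested.

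Slc9a2 also rose and fell with Slc26a3 among fl/fl tumors, with r of 0.913 (exact permutation p = 0.00112, adjusted 0.00893), rho of 0.905 (exact p = 0.00456, adjusted 0.0365) and r of 0.847 without tumors 1 and 7. Among knockout tumors r was 0.804 (exact permutation p = 0.00856, adjusted 0.0365) and rho 0.75 (exact p = 0.0255, adjusted 0.0816), but r dropped to 0.31 without tumors 6 and 8, so that the relation rests on them. For Cftr, r was 0.786 in fl/fl tumors (exact permutation p = 0.0214, adjusted 0.0571) and 0.328 in knockout tumors (exact p = 0.39, adjusted 0.567). For Slc9a3, r was -0.514 (exact permutation p = 0.183, adjusted 0.325) and 0.384 (exact p = 0.308, adjusted 0.493), with no relation past the threshold. Knockout tumor 6, with the lowest Slc26a3 of all arrays at 5.678, also had the lowest Slc9a2 (7.067), the highest squamous mean of the knockout tumors (9.066) and their lowest goblet cell mean (10.67).

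**Figure D4:**
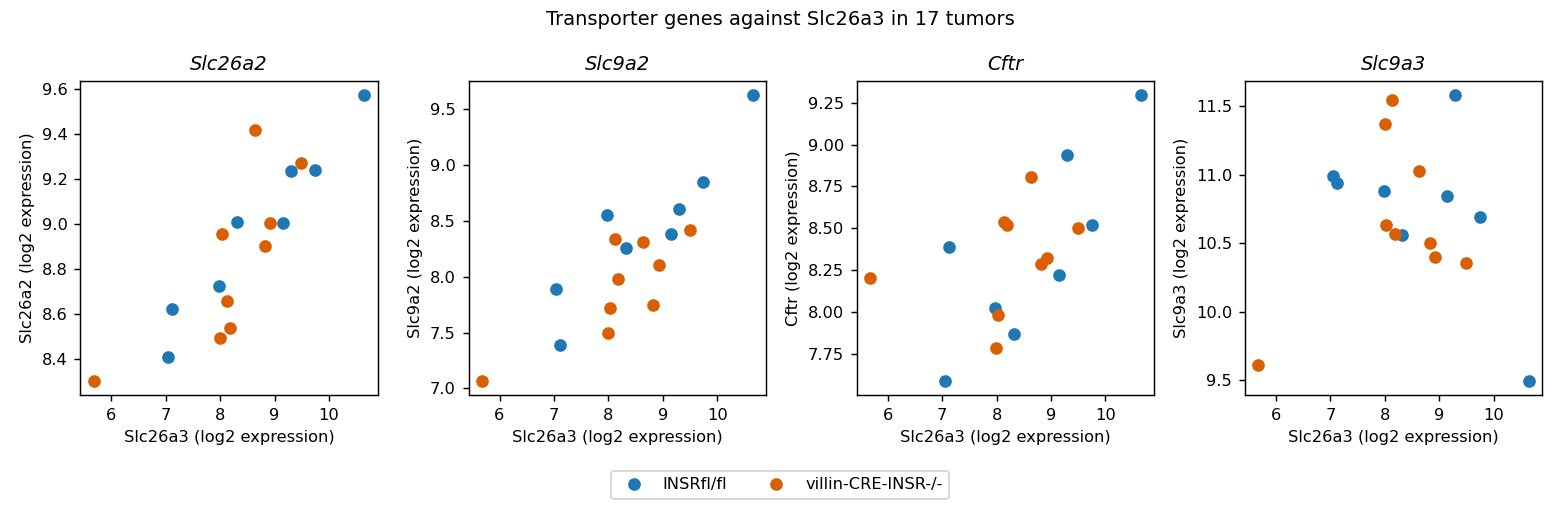
Slc26a2, Slc9a2, Cftr and Slc9a3 (y axes, log2 expression) against Slc26a3 (x axis, log2 expression) in 8 fl/fl tumors (blue) and 9 knockout tumors (orange), 1 point per tumor. Slc26a2 rises with Slc26a3 in both genotypes (r of 0.969 and 0.752), and Slc9a3 shows no such relation.

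Across all 57 arrays, deviations from the group means showed which genes varied like each transporter, given here as a description over arrays that share 1 normalization. The SD of Slc26a3 was 1.27 and 1.07 in tumors against 0.156 to 0.251 in the colon groups. For Slc9a2 it was 0.66 and 0.446 against 0.123 to 0.214. The correlations of these genes therefore reflect mostly variation among tumors. Slc26a3 varied most like Car4, a carbonic anhydrase of surface colonocytes (r = 0.906), Muc3 (0.876) and 2610528A11Rik (0.862). Its deviations correlated at 0.905 with the surface colonocyte mean, which contains Car4, and those of Slc9a2 and Slc26a2 did so at 0.862 and 0.774. Slc9a2 varied most like Cyp2c55 (0.819) and the water channel Aqp8 (0.818), both also on that list, and Slc26a2 most like Abcb1a, a drug efflux pump (0.86). Among the members themselves the closest were Slc26a3 and Slc9a2 (0.765), Slc26a3 and Slc26a2 (0.669), and Slc26a2 and Slc9a2 (0.662). Cftr varied most like Galnt7 (0.81), a mucin-type glycosylation enzyme, and at 0.64 like the surface list. Slc9a3 varied most like the amino acid carrier Slc1a4 (0.747), Slc4a4 like the growth factor gene Bmp2 (0.726), Slc4a2 like Osbpl7 (0.782) and Slc12a2 like Zfp708 (0.634).

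Slc26a6 stood apart from the other members in what it varied with. Its nearest genes were Mttp (r = 0.934), which loads lipid onto lipoproteins, Prap1 (0.931), and Npc1l1 (0.93), the intestinal cholesterol uptake protein. The array with the highest Slc26a6, treated fl/fl replicate 7, was also highest for Mttp (11.2), Prap1 (11.42) and Npc1l1 (9.996), against medians of 6.918, 7.276 and 6.56 in its group. Treated knockout replicate 10, at 7.675 for Slc26a6, stood at 9.908, 9.952 and 9.052. Untreated knockout replicates 7 and 4, at 7.333 and 7.122 for Slc26a6, stood at 9.037 and 8.813 for Mttp. High arrays occurred in every condition and in both genotypes. The correlation of Slc26a6 with the surface colonocyte mean was 0.0429.

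**Figure D5:**
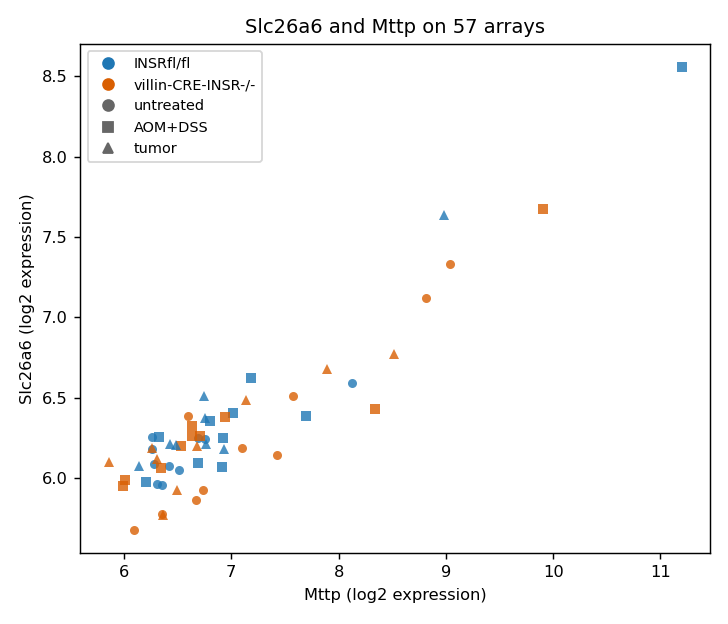
Slc26a6 (y axis, log2 expression) against Mttp (x axis, log2 expression) on 57 arrays, with fl/fl in blue and knockout in orange, circles for untreated colon, squares for AOM+DSS colon and triangles for tumors. Most arrays lie below 7 for Slc26a6, and the 5 above 7 also have Mttp above 8.8.

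Other members of the same transporter families were measured for 26 of 30 genes. After AOM+DSS 4 rose and 3 fell in fl/fl colon, where 12.2% of all genes rose and 10.5% fell, and 4 rose and 2 fell in knockout colon, where 16% rose and 14.2% fell. Slc4a11, Slc9a7 and Slc9a9 rose (by 0.62, 0.44 and 0.35 in fl/fl) and Slc9a8 fell (-0.33 in fl/fl and -0.49 in knockout colon). In tumors 4 rose and 5 fell in fl/fl samples, where 21% of all genes rose and 20.2% fell, and 5 rose and 5 fell in knockout samples, where 21.5% rose and 21.4% fell. The counts are close to those shares of 26 genes. Slc9a4, a sodium-proton exchanger best known from the stomach, rose by 3.13 ± 0.11 and 2.81 ± 0.11. Slc26a9, a chloride channel and exchanger of stomach and airway, rose by 1.82 ± 0.15 and 1.90 ± 0.14, and Slc4a11 rose by 1.54 ± 0.13 and 1.51 ± 0.12. The list medians, 0.05 and -0.04, were near those of all genes, 0.02 and 0.00.

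Among partners and regulators of these transporters, 18 of 20 were measured. After AOM+DSS 2 rose and 3 fell in fl/fl colon and 1 rose and 6 fell in knockout colon (list medians -0.03 and -0.12), where 22.7% and 30.2% of all genes were called. Guca2a, which encodes guanylin, the luminal hormone that opens Cftr, fell (-0.57 ± 0.17 and -1.03 ± 0.17). Sgk1, a kinase that stimulates Slc9a3, rose by 0.86 ± 0.17 in fl/fl colon and was not called in knockout colon. The 1 partner that rose there was Wnk1. In tumors 5 rose and 9 fell in fl/fl and 5 rose and 10 fell in knockout samples (medians -0.28 and -0.30), where 41.2% and 42.9% of all genes were called. Slc9a3r1 (NHERF1), the scaffold that holds Slc9a3 and Cftr at the luminal membrane, fell (-1.03 ± 0.08 and -1.01 ± 0.07), while Slc9a3 itself rose. Gucy2c, the guanylin receptor, fell (-0.93 ± 0.08 and -0.81 ± 0.08). Prkg2, the kinase through which that receptor acts on Cftr and Slc9a3, rose by 4.09 ± 0.25 and 3.95 ± 0.24.

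Pumps and channels that drive or balance this transport were measured for 10 of 12 listed genes. After AOM+DSS 1 rose and 4 fell in each genotype (list medians 0.02 and -0.12), where 22.7% of all genes were called in fl/fl and 30.2% in knockout colon. Kcnq1, the basolateral potassium channel that supports chloride secretion, fell (-0.47 ± 0.09 and -0.72 ± 0.09), and Fxyd4, a modulator of the sodium pump, fell (-1.52 ± 0.31 and -1.58 ± 0.31). Atp1b3, a subunit of the sodium pump, rose by 0.56 ± 0.13 and 0.78 ± 0.13. In tumors 1 rose and 5 fell in fl/fl and 2 rose and 5 fell in knockout samples (medians -0.34 and -0.24), where 41.2% and 42.9% of all genes were called. Those that fell included the chloride channel Clcn2 (-1.06 ± 0.11 and -1.19 ± 0.11), the potassium channel Kcnma1 (-1.06 ± 0.11 and -1.07 ± 0.10) and Atp12a, the colonic proton-potassium pump (-1.92 ± 0.24 and -1.93 ± 0.23). Between genotypes limma called 0 genes of the 3 lists in any condition. In treated colon 4 family members, 6 partners and 2 pumps or channels had an unadjusted p below 0.05, in tumors 0, 1 and 2, and in untreated colon 0 of each list. The share of all genes with an unadjusted p below 0.05 was not computed, so these counts cannot be set against a background or read as a genotype effect.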

How the data were processed

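RNA of 57 mouse distal colon and tumor samples was extracted with a mirVana kit, and 250 ng was labelled with the WT Plus kit and hybridised to Affymetrix arrays, per the labels' protocols. The submitters' processing notes name RMA, and the deposited values were taken as log2 expression from their range. RMA corrects background, equalises the distributions of the arrays and combines the probes of a set, so a shift of all RNA cannot be seen and changes of dim genes are compressed. Its version is not given in the sources used here.

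Of 41345 probe sets, 23521 carried 1 gene symbol in the platform's table, 1814 several and 16010 none. The brightest probe set of each gene gave 22180 genes, with no filter on dim genes. Columns were matched to samples by title and groups were taken from titles. Each comparison used limma 3.58.1 in R 4.3.3 (lmFit, contrasts.fit, eBayes) on the 6 groups with 51 residual degrees of freedom. P-values were two-sided and adjusted by the Benjamini-Hochberg method across the 22180 genes. The test was checked on simulated data. Arrays have no depth, and the number of arrays limits precision. The labels call samples biological replicates and name no mouse.

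Tumor correlations used exact permutation of pairings (SciPy 1.17.1 for ranks). Named genes were the members, Insr, the 3 genes most alike each member, and up to 4 genes per list and comparison by smallest adjusted p. Members and lists were chosen with earlier results of these data known. Alternatives were array weights, a fit of the compared groups alone, a replicate block, a trended robust eBayes, the mean over probe sets, only the brighter genes, 2 further normalizations (1 median, quantiles), marker means as covariates and leaving out each array. The distal position covariate was chosen after seeing the data. Same-numbered samples were not treated as pairs. Of 136 such pairs 51 deviated together with a correlation over 0.1 (2000 most variable genes), and no pair of groups did so throughout. The labels do not say what the number stands for, so this does not exclude a shared source. With the number as a block, AOM+DSS calls over all genes went from 5044 to 5438 in fl/fl and from 6692 to 7071 in knockout colon. Calls between genotypes in tumors went from 2 to 1.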

Additional observations from a re-analysis of the deposited data

Results flagged for a closer look

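Within groups, 7 of the 54 combinations of a transporter gene and a group held an array farther from the others than Dixon's criterion allows at 95%, where chance gives about 1 in 20. Slc26a6 accounted for 4: untreated fl/fl replicate 10 at 6.594, treated fl/fl replicate 7 at 8.557, treated knockout replicate 10 at 7.675 and fl/fl tumor 6 at 7.636. Each of these was also the highest array of its group for Mttp, Prap1 and Npc1l1. Slc26a3 was low in knockout tumor 6, at 5.678 where the other 8 knockout tumors lay at 7.998 or above. Slc4a2 was high in untreated knockout replicate 2, at 9.526, the array with the lowest Hox mean of its group. Cftr was high in treated fl/fl replicate 6, at 10.23, which was also the highest treated fl/fl array for Slc9a3 (11.16).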

How the results depend on the processing

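Of 1177 values of single transporter genes under alternatives other than leaving out an array, 1142 kept their side of the threshold, 23 lost and 9 gained a call, and 3 reversed. With the smooth muscle mean as a covariate Slc9a3 turned to -0.17 (fl/fl) and -0.23 (knockout) in tumors against treated colon and to -0.45 in fl/fl tumors against untreated colon. That fit extrapolates, since tumor and colon means of the list do not overlap. Counts of called transporter genes moved by more than 1.5 times as follows. The AOM+DSS count in fl/fl colon was 1 with the squamous covariate instead of 4. In knockout colon it was 3 with the squamous and 3 with the pan-epithelial covariate instead of 7. Knockout tumors against treated colon gave 4 with the smooth muscle covariate instead of 7. Knockout against fl/fl after AOM+DSS gave 2 with dim genes removed, 0 in the compared groups alone and 0 with the pan-epithelial covariate, instead of 1, and from 0 to 2 when arrays were left out in turn. Leaving out 1 array at a time moved 26 gene values out of a call and 8 into one, and 2198 kept their side. With the replicate number as a replicate block no transporter gene lost a call, and Slc9a3 in knockout tumors against untreated colon was called (0.79, adjusted p = 0.0401). Shifting all arrays to 1 median changed the AOM+DSS calls over all genes in fl/fl colon from 2715 higher and 2329 lower to 3373 and 1254. Removing dim genes left out 1 transporter gene, Slc26a6. Bright probe sets near saturation and dim ones near background understate changes.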
